A study of Sus scrofa with 4 samples.

Results

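The genes described here are the core splicing factors of the porcine oocyte, chosen by gene symbol as all rows beginning with SNRP, LSM and a digit, SF3A, SF3B, PRPF or SRSF. The symbols matched 58 rows of the deposited table, and 56 of them held values, out of 16050 genes with values in all. The 56 were 24 SNRP and LSM genes, which encode mostly small ring and snRNP proteins, and 32 SF3A, SF3B, PRPF and SRSF genes, which encode mostly larger factors. The 2 matched rows without values were SNRPB and PRPF38A, both typed as lncRNA in the table.

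The libraries came from Sus scrofa oocytes at metaphase II, matured in vitro for up to 44 h in the cumulus-oocyte complex, with 3 oocytes pooled per library and amplified by Smart-seq2 from polyadenylated RNA. Control 1 and Control 2 were matured without added Cu, and Cu 1 and Cu 3 with 25 μg/mL Cu given as copper sulfate. The dose and the culture time are those given in the methods for the study as a whole. The methods describe 3 sets of oocytes per group, and the libraries of the third set were not analysed here, although the authors' group means in the table include 3 libraries each. Ovaries came from a slaughterhouse, and nothing in the labels says whether the libraries of a group came from separate cultures, so the p-values measure only the spread between these libraries. A change in 1 oocyte of a pool and a change in all 3 cannot be told apart, nor can a rise of a gene from a fall of the rest, since FPKM are relative.

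A spliceosome is built from small nuclear ribonucleoproteins (snRNPs), each an snRNA with its proteins. The Sm proteins close into a ring around the U1, U2, U4 and U5 snRNAs, and the related LSm proteins form a ring on U6 snRNA and another one in the cytoplasm that takes part in mRNA decapping. SF3A and SF3B are parts of the U2 snRNP, which binds the branch point of the intron, the PRPF proteins serve mainly in the tri-snRNP and in the activation of the spliceosome, and the SRSF proteins bind exons and help to define splice sites. A fully grown oocyte transcribes little and lives on mRNAs stored during growth, so transcripts of splicing genes in a mature oocyte are largely stored messages.

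Values are FPKM, a read abundance scaled to transcript length and library size. Whether this scaling makes short and long transcripts comparable in these libraries was not tested, which limits the comparisons of level between genes below. The depth of the libraries is unknown. FPKM summed to between 616082 and 672681 per library, and 7923 to 8162 genes reached 1 FPKM in Control 1, Control 2 and Cu 3, against 9364 in Cu 1. All 14 oocyte marker genes were detected at 1 FPKM or more in at least 1 library, with summed levels of 9279 and 10946 FPKM in the Control and 12414 and 10608 FPKM in the Cu libraries. The 11 cumulus and granulosa markers with values, of 16 listed, summed to between 1.07 and 2.69 FPKM, with AMH at 0 in all 4 libraries and only VCAN reaching 1 FPKM. The 2 blood and endothelial markers with values, of 6 listed, summed to between 2.27 and 5.82 FPKM. The metallothionein genes, which metals induce in many cells, did not separate the groups in a single direction. MT1A had 5.97 and 7.0 FPKM in Control 1 and 2, against 3.31 and 4.44 FPKM in Cu 1 and 3, while MT3 had 8.10 and 1.91 against 19.6 and 9.87 FPKM. ATP5PF, NDUFB3, NDUFAB1 and NDUFA13, genes of oxidative phosphorylation, had higher FPKM in both libraries labelled Cu than in both labelled Control. The study describes these genes with the opposite direction, so whether the labels are the right way round cannot be told here, and each direction below is that of the labels. Control and Cu are therefore used only as names of the libraries.

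The splicing genes differed widely in level, and most of the abundant ones encode small ring or snRNP proteins. At least 10 FPKM in every library was reached by 17 of 24 SNRP and LSM genes and by 12 of 32 larger factors. The 56 genes together held 1.8% and 1.74% of all FPKM in Control 1 and 2 and 2.15% and 2.09% in Cu 1 and 3. The median level of the SNRP and LSM genes was 240 and 189 FPKM in Control 1 and 2, against 312 and 305 FPKM in Cu 1 and 3. That of the larger factors was 7.12 and 6.99 FPKM in Control 1 and 2, against 14.5 and 8.23 FPKM in Cu 1 and 3. On the log2(FPKM + 1) scale the medians of the classes lay 4.89 and 4.57 apart in the Control and 4.33 and 5.05 apart in the Cu libraries. As a ratio of FPKM + 1, the small proteins were thus 20.1 to 33.1 times as high. At least 100 FPKM in every library was reached by 13 of 24 SNRP and LSM genes, and by 3 of 32 larger factors, SF3B6 and SF3A3 among them.

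Within the Sm ring all 7 genes with values were abundant. SNRPE, the Sm protein with the highest level, had 3117 and 2814 FPKM in Control 1 and 2, against 3053 and 3490 FPKM in Cu 1 and 3. The groups overlapped. SNRPE also has a copy annotated as a pseudogene in the RefSeq gene table of Sscrofa11.1, and reads of such copies cannot be told apart here. SNRPF, its neighbour in the ring, had 1075 and 1040 FPKM in Control 1 and 2, against 1842 and 1547 FPKM in Cu 1 and 3, and the groups did not overlap. SNRPD1, SNRPD2, SNRPD3 and SNRPG ranged from 172 to 898 FPKM over the 4 libraries. SNRPN, an Sm protein nearly the same as that of SNRPB and imprinted in mammals, had 268 and 297 FPKM in Control 1 and 2, against 292 and 283 FPKM in Cu 1 and 3, and the groups overlapped. Reads of SNRPB, which has no values, could have been counted with it. The highest mean of the ring, SNRPE, was 10.9 times the lowest, SNRPN.

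The LSm ring was far less even. Its highest mean level, that of LSM7, was 122 times the lowest, that of LSM6. LSM7 lay between 911 and 1309 FPKM, LSM5 between 294 and 535, LSM3 between 205 and 381 and LSM8, the subunit found only in the ring on U6, between 62.8 and 116 FPKM. LSM1, which takes the place of LSM8 in the cytoplasmic ring, lay between 8.48 and 13.2 FPKM, LSM2 between 11.4 and 48.8, LSM4 between 6.52 and 40.2 and LSM6 between 4.55 and 13.6 FPKM. The subunits of the ring on U7 snRNA, which serves the processing of histone mRNA, were also present, LSM10 at 17.1 to 71.5 FPKM and LSM11 at 26.2 to 43.1 FPKM.

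**Figure D1:**
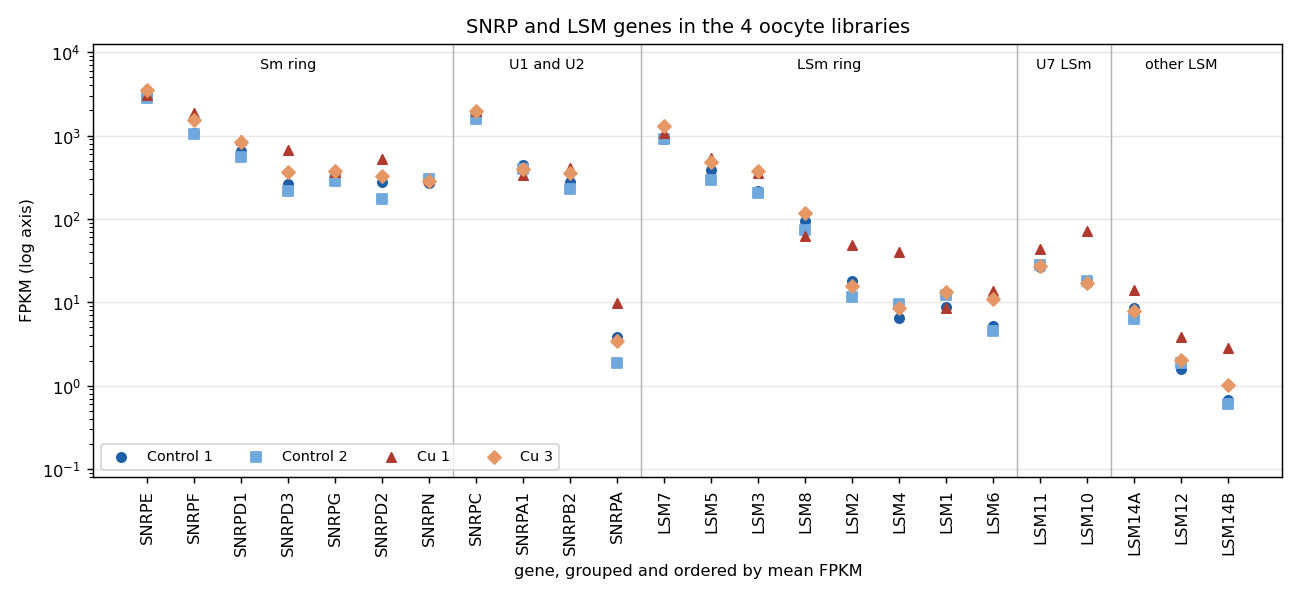
FPKM (log axis) of the 24 SNRP and LSM genes in each library, grouped by role and ordered by mean level, with 1 point per library. The 7 Sm ring genes lie above 100 FPKM in every library, while the LSm ring runs from LSM7 at 911 to 1309 FPKM to LSM6 at 4.55 to 13.6 FPKM.

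Among the U1 and U2 proteins, SNRPC, a U1 protein that helps to hold the 5′ splice site, had 1734 and 1600 FPKM in Control 1 and 2, against 2000 and 1958 FPKM in Cu 1 and 3. The groups did not overlap, but the log2 fold change was only 0.25 and its sign turned when the libraries were scaled by quantiles or by the median of ratios. SNRPA1 and SNRPB2, the U2 snRNP pair that binds a stem loop of U2, lay between 231 and 450 FPKM. SNRPA, the U1 protein related to SNRPB2, was low, at 1.88 to 9.88 FPKM. LSM14A and LSM14B bear the LSM name but are larger proteins of mRNA storage particles. LSM14A had 8.61 and 6.38 FPKM in Control 1 and 2, against 14.1 and 7.95 FPKM in Cu 1 and 3, with the groups overlapping. LSM14B had 0.67 and 0.61 FPKM in Control 1 and 2, against 2.80 and 1.02 FPKM in Cu 1 and 3, and it passed the filter on low values through the Cu libraries alone.

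Of the SF3A and SF3B genes, SF3B6, a small protein at the branch point, was the highest, with 472 and 388 FPKM in Control 1 and 2, against 390 and 696 FPKM in Cu 1 and 3. SF3A3 had 304 and 375 FPKM in Control 1 and 2, against 334 and 212 FPKM in Cu 1 and 3, and both genes overlapped between the groups. Their partner SF3A1, in contrast, had 3.19 and 3.53 FPKM in Control 1 and 2, against 14.8 and 2.19 FPKM in Cu 1 and 3, so that only Cu 1 stood out. SF3A2 reached 1 FPKM only in Cu 1, and lay at 0.36 to 0.94 FPKM in the other libraries, and was not tested. SF3B1, the large subunit that contacts the branch point, had 37.5 and 33.3 FPKM in Control 1 and 2, against 29.4 and 36.4 FPKM in Cu 1 and 3, a difference within the spread of the libraries. SF3B4 had 3.35 and 14.5 FPKM in Control 1 and 2, against 33.3 and 10.6 FPKM in Cu 1 and 3. The log2 fold change of SF3B4, 1.28, was the largest of the tested splicing genes, with a standard error of 0.77, an unadjusted p of 0.147 and Control libraries that themselves lay 1.83 apart.

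The PRPF genes also spanned a wide range of levels. PRPF18, a second-step splicing factor, lay at 57.0 to 102 FPKM and PRPF3, a U4/U6 protein, at 41.4 to 95.9 FPKM. PRPF8, the core protein of the spliceosome, had only 8.10 and 7.55 FPKM in Control 1 and 2, against 6.59 and 6.35 FPKM in Cu 1 and 3, lower in both Cu libraries by an amount (-0.24 ± 0.35) within its error. PRPF6 stayed at or below 0.87 FPKM, and PRPF31 reached 1 FPKM only in Cu 1, with 2.15 FPKM, so neither of these tri-snRNP genes was tested. Among the SRSF genes, SRSF7, SRSF10, SRSF3 and SRSF9 had the highest means. SRSF3 had 30.2 and 24.0 FPKM in Control 1 and 2, against 25.4 and 25.8 FPKM in Cu 1 and 3, with no difference beyond the spread. The other SRSF genes lay between 0.76 and 18.0 FPKM.

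**Figure D2:**
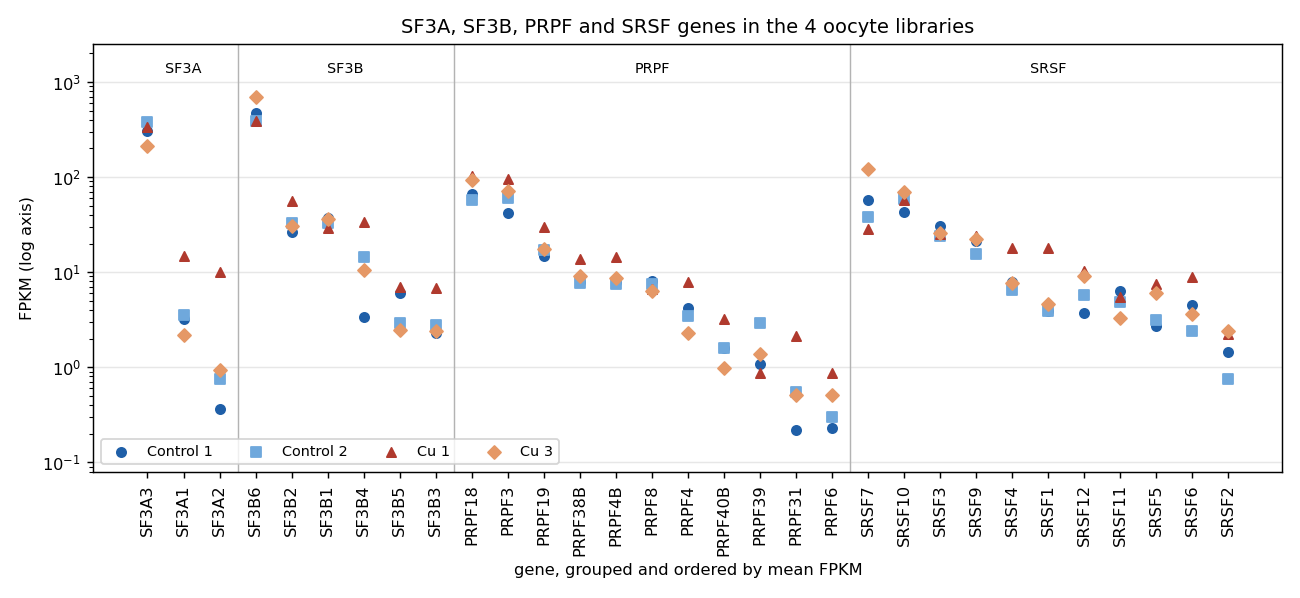
FPKM (log axis) of the SF3A, SF3B, PRPF and SRSF genes, all but 1 of the 32, in each library, grouped by family and ordered by mean level, with 1 point per library. SF3A3 and SF3B6 stand above 100 FPKM in every library, and many genes below 20 FPKM have Cu 1 as the single high point.

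Whether Cu exposure shifted these transcripts was examined with limma's moderated test on log2(FPKM + 1) over the 8541 genes that reached 1 FPKM in at least 2 libraries, among them all 24 SNRP and LSM genes and 29 of the 32 larger factors. No splicing gene passed at an adjusted p of 0.05, nor did any other gene (0% of those tested), with a smallest adjusted p of 0.631. At an unadjusted p of 0.05 or less, 5 splicing genes were higher and 1 was lower in the libraries labelled Cu. Over all tested genes 477 were higher (5.58%) and 122 lower (1.43%) at that limit. The smallest two-sided p that an exact permutation of 2 and 2 libraries allows is 0.333.

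The 5 higher genes were LSM6, LSM3, SNRPD3, SNRPF and SRSF5, and in each of them the groups did not overlap. LSM6, which lies on chromosome 8 at 82409170 to 82428501 of Sscrofa11.1, had 5.24 and 4.55 FPKM in Control 1 and 2, against 13.56 and 11.07 FPKM in Cu 1 and 3. Its mean was 2.52 times as high in Cu, or 1.17 ± 0.36 on the log2 scale (limma, unadjusted p of 0.0167 and adjusted p of 0.641). LSM3 (chromosome 13, 70339685 to 70349802), its partner in both LSm rings, had 219 and 205 FPKM in Control 1 and 2, against 358 and 381 FPKM in Cu 1 and 3. The distance between the groups, 0.80 on the log2 scale (standard error 0.25), was several times the distance between the libraries of a group, 0.093 for Control and 0.088 for Cu.

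SNRPD3 (chromosome 14, 49585177 to 49598015), a subunit of the Sm ring, had 261 and 214 FPKM in Control 1 and 2, against 673 and 370 FPKM in Cu 1 and 3. The mean was 2.2 times as high in Cu, which gave 1.08 ± 0.36 (log2 fold change ± standard error), with Cu 1 well above Cu 3. SNRPF (chromosome 5, 87614934 to 87622863), whose values are given above, gave 0.67 ± 0.24 in the same way. SRSF5 (chromosome 7, 93393379 to 93398510), a splicing activator of the SR family, had 2.69 and 3.16 FPKM in Control 1 and 2, against 7.51 and 6.05 FPKM in Cu 1 and 3, which gave 0.98 ± 0.36 (log2 fold change ± standard error). The adjusted p of LSM3 was 0.652, and that of SNRPD3, SNRPF and SRSF5 was 0.656.

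The fold changes leaned upward as a group. Of the 24 SNRP and LSM genes 23 were higher in Cu, SNRPA1 being the exception, with a median log2 fold change of 0.55 and a range from -0.21 to 1.17. Of the 29 tested larger factors 22 were higher and 7 lower, with a median of 0.47 and a highest value of 1.28. Over all tested genes 64.3% were higher, with a median of 0.16. The small proteins thus lay 0.39 and the larger factors 0.31 above the median of all tested genes.

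The median fold changes of the small proteins and the larger factors were 0.077 apart. This distance was smaller than its standard deviation between libraries of a group, 0.097, and ranged from -0.023 to 0.25 when each library was left out. Its sign turned to -0.013 without Control 2 and to -0.023 without Cu 3. The Cu pair lay wholly above the Control pair in 13 of 24 SNRP and LSM genes (54.2%) and in 10 of 29 larger factors (34.5%), against 25.4% of all tested genes. It lay wholly below in 0 of 24 and in 2 of 29, against 13.4% of all tested genes, and PRPF8 was among the 2. The 13 include LSM14B, which had to be higher in Cu to pass the filter. With 1 FPKM required in every library, the counts were 12 of 23 (52.2%) and 9 of 26 (34.6%), against 24.4% of all genes tested. The gap between the classes was not seen under median-of-ratios scaling, where they were 8 of 24 (33.3%) and 9 of 29 (31.0%), against 17.1% of all tested genes. Under quantile normalization the gap remained, with 11 of 24 (45.8%) and 7 of 29 (24.1%), against 16.7%. The difference between these shares was not tested, since genes of 1 library are not replicates.

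By role, the Cu pair lay wholly above the Control pair in 5 of 7 Sm ring genes (SNRPD1, SNRPD2, SNRPD3, SNRPF and SNRPG), 4 of 8 LSm ring genes (LSM3, LSM5, LSM6 and LSM7), and in SNRPB2, SNRPC, LSM12 and LSM14B, the last by way of the filter. For comparison, it lay wholly above in 25.4% and wholly below in 13.4% of all tested genes. The median log2 fold change was 0.51 for the Sm ring, 0.69 for the LSm ring and 0.42 for the 4 U1 and U2 genes. Among the larger factors it was 0.64 for the 11 SRSF genes, of which SRSF1, SRSF2, SRSF5, SRSF9 and SRSF12 had groups that did not overlap, and 0.33 for the 10 tested PRPF genes, of which PRPF3, PRPF4B, PRPF18, PRPF19 and PRPF38B were higher without overlap. None of the 6 SF3B genes and neither of the 2 tested SF3A genes had groups that did not overlap.

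**Figure D3:**
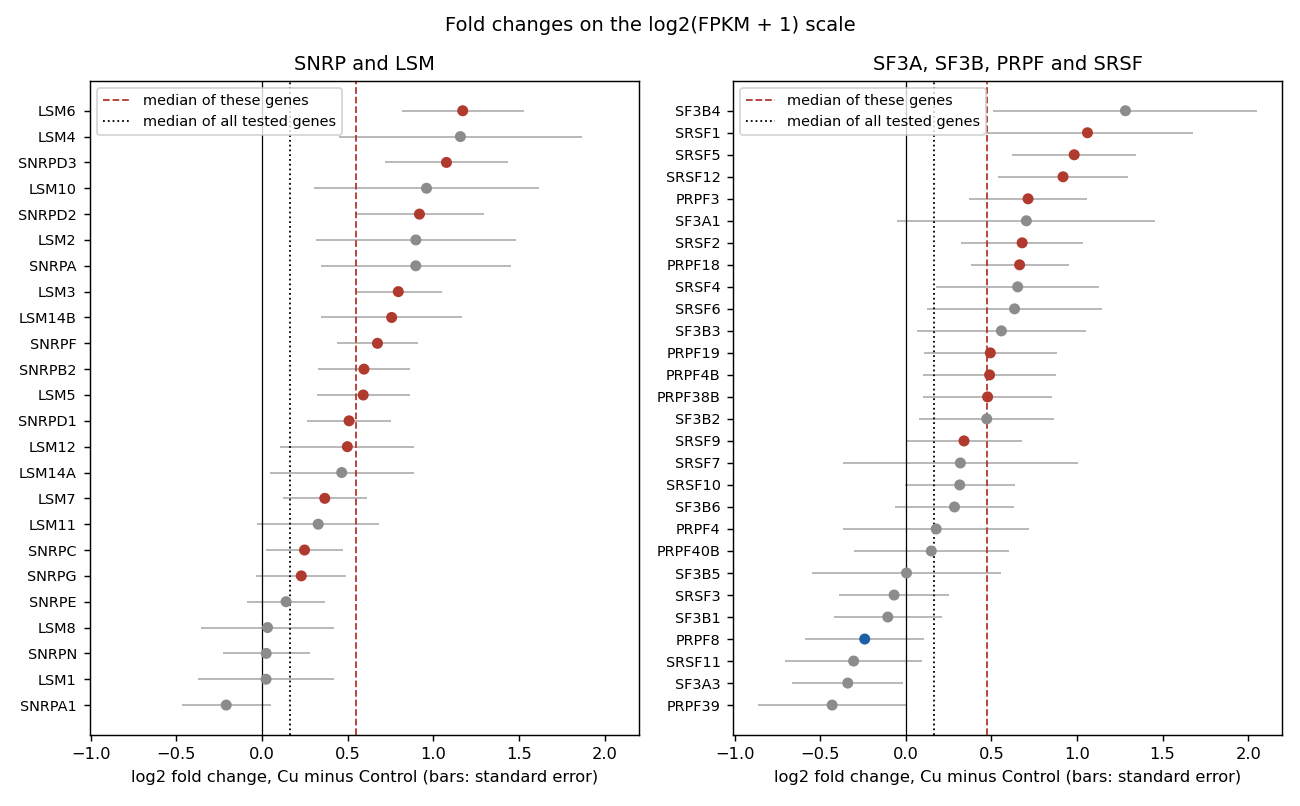
Log2 fold change, Cu minus Control on log2(FPKM + 1), of the tested splicing genes, all but 1 of the 53, with standard errors, in red where the Cu pair lay wholly above the Control pair and in blue where it lay wholly below. Most genes lie right of 0 in both panels, and the dashed class medians (0.55 and 0.47) stand right of the dotted median of all tested genes (0.16).

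The authors' group means, which include 3 libraries each, gave 20 of 24 SNRP and LSM genes and 20 of 29 tested larger factors as higher in Cu, compared with 62.0% of all tested genes. The median log2 difference of these means was 0.34 for the small proteins, 0.29 for the larger factors and 0.11 for all tested genes. Of the 13 small-protein genes whose libraries did not overlap, 11 were also higher by the authors' means. The other two were SNRPB2, with means of 371 for Control and 338 for Cu, and SNRPG, with 405 and 347. LSM5 was barely higher, at 462 for both groups. LSM6 had authors' means of 6.91 and 11.2, LSM3 of 273 and 336, SNRPD3 of 333 and 474, SNRPF of 1402 and 1540 and SRSF5 of 3.55 and 5.72. Since these means hold the libraries already used, what they add is 3 times the mean minus the sum of those libraries. In each of these 5 genes that remainder was lower for Cu than for Control, so their groups overlap once it is counted. The remainder was higher for Cu in 11 of 24 SNRP and LSM genes (45.8%) and in 14 of 29 larger factors (48.3%), near the 48.8% of all tested genes. Of the 13 small-protein genes without overlap it was higher for Cu in 4 and lower in 9. Of the 10 larger factors with the Cu pair wholly above, it was higher for Cu in 5 and lower in 5. The lower remainder of the 5 genes named above was therefore not shared by every gene without overlap. The upward lean of the splicing genes was thus seen in the 4 libraries and not in the remainder. For each gene the remainder is only a single value per group, so its spread is unknown.

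The Cu libraries shared the upward shift in only part of the splicing genes, and differed most in genes of low level. Both lay above both Control libraries in 23 of 53 tested splicing genes (43.4%), against 25.4% of all tested genes. After the values had been seen, the splicing genes were divided at a mean of 50 FPKM over the 4 libraries. For the 14 SNRP and LSM genes at or above it, the median distance from the Control mean was 0.41 in Cu 1 and 0.48 in Cu 3 on the log2 scale. For the 10 below it, the distance was 1.26 in Cu 1 and 0.14 in Cu 3. The 22 tested larger factors under 50 FPKM showed the same arrangement, with 0.84 in Cu 1 and 0.076 in Cu 3, and the 7 above it had -0.012 and 0.50. Over all tested genes the distances were 0.059 and 0.0094 at 50 FPKM or more, and 0.36 and 0.0012 below it.

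Of the 4 libraries, Cu 1 alone was high in LSM4, with 6.52 and 9.49 FPKM in Control 1 and 2, against 40.2 and 8.53 FPKM in Cu 1 and 3. The same held for LSM10, with 17.1 and 18.1 against 71.5 and 17.1 FPKM. The authors' means for Control and Cu were 8.08 and 23.4 in LSM4 and 18.3 and 37.9 in LSM10. Their remainder was higher for Cu in both genes. SRSF1, a founding member of the SR family, had 3.92 and 3.90 FPKM in Control 1 and 2, against 17.8 and 4.58 FPKM in Cu 1 and 3, so its log2 fold change of 1.06 rested mostly on Cu 1. The authors' means of SRSF1 were 4.13 for Control and 10.4 for Cu, and its remainder was also higher for Cu. Between the Cu libraries SRSF7 went the other way, with 58.0 and 37.9 FPKM in Control 1 and 2, 28.2 FPKM in Cu 1 and 121 FPKM in Cu 3. These genes were chosen after their values were seen. Over the 24 small-protein genes the median distance between the libraries of a group was 0.22 for Control and 0.44 for Cu, and over the 32 larger factors it was 0.29 and 0.65. Cu 1 also had the largest number of detected genes. The part of that library's wider detection in these differences was not tested.

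**Figure D4:**
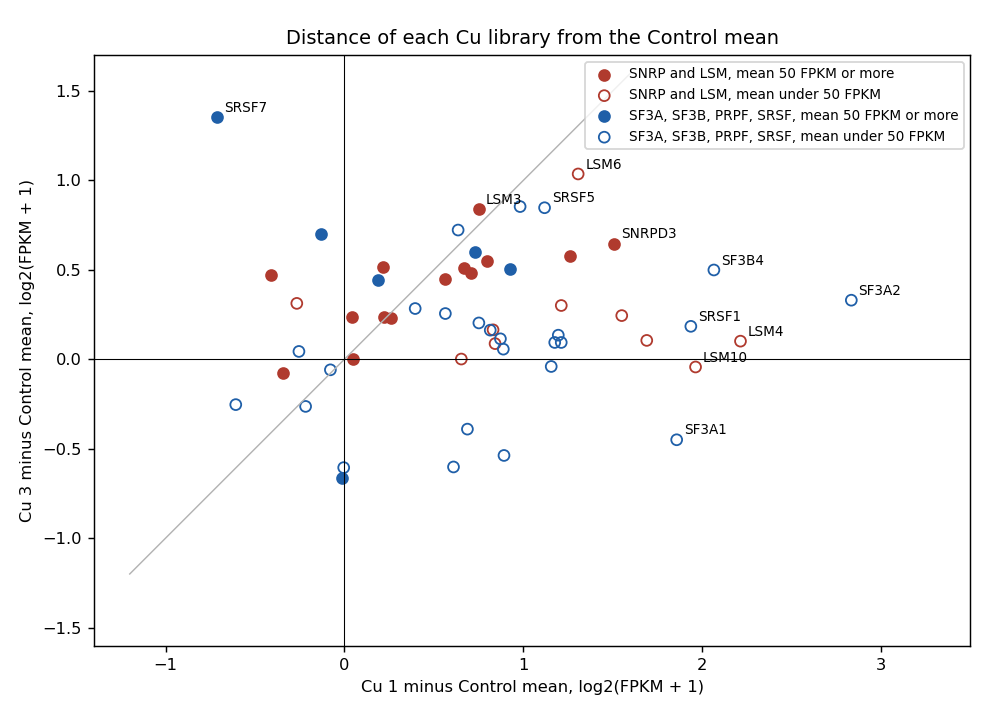
Distance of Cu 1 (horizontal) and of Cu 3 (vertical) from the mean of the Control libraries on log2(FPKM + 1), for the splicing genes, all but 1 of the 56, with filled points at a mean of 50 FPKM or more and a grey line of equal distance. Many open points run along the horizontal axis, high in Cu 1 only, but others, LSM6 and SRSF5 among them, lie above 0 on both axes. Most filled red points lie above 0 on both axes.

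Without Cu 1 the median log2 fold change was 0.24 for the small proteins and 0.094 for the larger factors, beside 0.0058 for all tested genes, and without Cu 3 it was 0.71, 0.73 and 0.30. Without Cu 1, Cu 3 lay above both Control libraries in 15 of 23 tested small-protein genes and below them in 1, against 37.4% of all genes each way. For the larger factors these counts were 13 and 8 of 29. When the libraries were scaled by the median of ratios or by quantiles, the median of all genes moved to -0.042 and -0.049. Under these scalings 17 and 19 of the 24 small-protein genes were higher in Cu, as were 19 of the 29 larger factors under each. Of all 8541 tested genes 3966 and 3909 were higher. The small proteins then lay 0.37 above the median of all genes in either case, and the larger factors 0.27 and 0.26. The Cu pair lay wholly above in 17 splicing genes and wholly below in 4 under the first scaling, and in 18 and 6 under the second, against 17.1% above and 22.0% below, and 16.7% and 22.8%, of all tested genes.

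Other spliceosome, snRNP assembly, SR-related, exon junction and hnRNP genes, listed by hand, had a median at that of all genes. Of 134 tested genes 88 were higher and 46 lower, with a median log2 fold change of 0.16. The Cu pair lay wholly above in 30 (22.4%) and wholly below in 15 (11.2%), against 25.4% and 13.4% of all tested genes. At an unadjusted p of 0.05 in limma's test, 7 of the 134 were higher and 1 lower. Over all tested genes 5.58% were higher and 1.43% lower at that limit. BUD31, a small protein of the activated spliceosome, had 78.2 and 115 FPKM in Control 1 and 2, against 566 and 261 FPKM in Cu 1 and 3, which gave 2.01 ± 0.44 (log2 fold change ± standard error). SNRNP40, a U5 protein, had 304 and 317 FPKM in Control 1 and 2, against 176 and 192 FPKM in Cu 1 and 3, which gave -0.75 ± 0.26 (log2 fold change ± standard error). ZMAT2, DHX35, HNRNPD, TXNL4A, BCAS2 and DHX16 had log2 fold changes between 0.96 and 1.25. In the remainder of the authors' means, described above, the direction held in BUD31, DHX35, BCAS2 and DHX16. It turned in SNRNP40, ZMAT2, HNRNPD and TXNL4A. After adjustment, limma gave a p of 0.631 for BUD31, 0.656 for SNRNP40 and 0.656 to 0.706 for the other 6.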

How the data were processed

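RNA was sequenced from 4 Smart-seq2 libraries, 2 labelled Control and 2 labelled Cu. The authors deposited FPKM rounded to 2 decimals, with the authors' mean FPKM of each group beside them. The paper's methods name HISAT2, Bowtie2 and RSEM, whereas the submitters' processing notes name TopHat2 2.0.13, Cufflinks 2.2.1, Cuffnorm and Cuffdiff with Sscrofa11.1, and which of these made the table is not given in the sources used here. FPKM keep no read number, so no count test or interval was possible. For all 16050 genes, 3 times the authors' mean was a whole number of hundredths (tolerance 0.01) and not below the sum of the 2 libraries.

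Genes reaching 1 FPKM in 2 or more libraries were fitted with limma 3.58.1 in R 4.3.3 (lmFit, eBayes with a variance trend) on log2(FPKM + 1), with Benjamini-Hochberg adjustment over 8541 genes. The added 1 makes fold changes of weakly expressed genes smaller. The function was tested on simulated data. Symbols and identifiers of all 56 splicing genes were found in RefSeq's table for Sscrofa11.1, from which the positions were taken. No protein, transcript or genome sequence was used here, so protein length was not analysed.

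The members and gene lists were chosen with earlier results of these data known. Values of every library are given for genes at an unadjusted p of 0.05, the smallest p of each family, the 3 highest means of each class, and SNRPN, LSM14A, LSM14B, SF3B1, PRPF8 and SRSF3. Other splicing genes are those with the smallest p. Alternatives were another pseudocount, filters and scalings, no variance trend, leaving out each library, a narrower small class and, added after seeing the data, the authors' means and their remainder (3 times the mean minus the sum of the libraries used). For 1 larger factor the single values are not reported here, and it enters only the counts and medians.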

Additional observations from a re-analysis of the deposited data

How the results depend on the processing

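No paired analysis was possible because the groups share only 1 replicate number. A division by protein length was not run, as no protein table was used. The median of the SNRP and LSM genes was 0.55, and moved to 0.32 under quantile normalization, 0.33 under median-of-ratios scaling and 0.34 by the authors' means. Leaving out each library in turn gave 0.24 to 0.71 for it, 0.094 to 0.73 for the larger factors and -0.023 to 0.25 for the distance between them. Relative to all tested genes the small proteins lay at 0.39, at 0.22 by the authors' means and at 0.23 to 0.56 with a library left out, and the larger factors at 0.31 and at 0.089 to 0.43. The splicing genes at an unadjusted p of 0.05 numbered 6, but 2 under median-of-ratios scaling and 1 to 30 with a library left out (1 without Control 1 or Control 2, 9 without Cu 1 and 30 without Cu 3). The count over all tested genes also fell without Control 1 or Control 2 and rose without Cu 1 or Cu 3. These shifts were thus not particular to the splicing genes. Both Cu libraries were above in 23 of the tested splicing genes (43.4%). With a library left out, a looser condition on 3 libraries, the count was 28 to 37 (53.8% to 71.2%). Over all tested genes the shares above were 25.4%, and 35.2% to 57.6% with a library left out. The Cu libraries were below in 2 (3.77%), in 6 under quantile normalization and in 4 under median-of-ratios scaling. With a library left out they were below in 5 to 9 (9.43% to 17.3%). The shares below of all tested genes were 13.4%, and 19.6% to 37.4%. The count of all genes at an adjusted p of 0.05 was 0, and 0 to 1890 with a library left out, namely 203 without Cu 1 and 1890 without Cu 3, where the lone Cu library is assumed to vary like Control. The log2 fold change changed sign in SNRPC (-0.074 by quantiles, -0.0001 by median of ratios), SNRPE (-0.11 by median of ratios) and SNRPN (-0.095 by quantiles, -0.22 by median of ratios). With a library left out it ran from -0.050 to 0.099 in SNRPN, -0.25 to 0.044 in SF3B1, -0.13 to 0.70 in SF3B6 and -0.23 to 0.092 in SRSF3. For the 5 higher genes at an unadjusted p of 0.05 the direction held under all 10 alternatives fitted, but the unadjusted call held in only 9 of 11 fits for LSM6, 8 for LSM3 and SNRPD3, 6 for SRSF5 and 4 for SNRPF. None of them held it without Control 1 or Control 2. Their adjusted p ran from 0.000245 (SNRPD3 without Cu 3) to 1. The pseudocount, the filters, the variance trend and the narrower class moved neither class median beyond the spread between libraries. The cause of these changes was not tested.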

Other observations

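Genes that work with LSM proteins in mRNA decay and storage were listed apart from the spliceosome. Of 12 tested genes 7 were higher and 5 lower in the libraries labelled Cu, with a median log2 fold change of 0.12. DCP1A, a cofactor of the decapping enzyme, had 59.5 and 57.0 FPKM in Control 1 and 2, against 40.0 and 26.7 FPKM in Cu 1 and 3, which gave -0.81 ± 0.33 (log2 fold change ± standard error) and an unadjusted p of 0.0515 in limma's test. DCP2, the decapping enzyme itself, lay between 9.93 and 10.4 FPKM in the 4 libraries. ZAR1, an RNA-binding protein of the oocyte, had 6.0 and 4.56 FPKM in Control 1 and 2, against 24.9 and 8.84 FPKM in Cu 1 and 3, with an unadjusted p of 0.0450 and an adjusted p of 0.685 in the same test. SMN1, which loads the Sm ring onto snRNAs, had 1106 and 1271 FPKM in Control 1 and 2, against 767 and 835 FPKM in Cu 1 and 3, which gave -0.57 ± 0.24. All 7 Sm ring genes with values had the opposite sign, SNRPN being the lowest at 0.024. These genes were named after their values were seen. The authors' means for Control and Cu were 1040 and 955 in SMN1, 45.4 and 38.9 in DCP1A and 7.41 and 13.3 in ZAR1. In each of SMN1, DCP1A and ZAR1 the remainder of these means, described above, went against the direction of the libraries. Their groups therefore overlap once it is counted.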
